A study of Mus musculus with 10 samples.

Results

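The 39 genes described here act in the oxidation of fatty acids in the liver or are targets of the nuclear receptor PPAR-alpha (peroxisome proliferator-activated receptor alpha). They were chosen by gene symbol and function, not by a threshold on their values, but with earlier results of these data known. Every one has a row among the 24011 genes with a symbol in the deposited table. Liver RNA was sequenced from 10 young adult male C57BL/6 mice on day 6 after a tail vein injection of adenovirus. Of these, 5 control mice received AdCMV, a vector that holds the CMV promoter and nothing for it to drive, and 5 mice received AdVEGFA, which expresses VEGF-A from the same promoter. All mice therefore carried an adenoviral vector, and no untreated mouse was used here. The RNA was total RNA of whole perfused liver after removal of ribosomal RNA, so hepatocytes and all other liver cells contribute to each value, and the promoter does not restrict the transgene to a cell type.

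Fatty acids enter hepatocytes through carriers such as CD36, are bound by the liver fatty acid binding protein FABP1 and are joined to coenzyme A. The carnitine shuttle moves the long-chain acyl groups into mitochondria, where the enzymes of beta-oxidation shorten them in repeated rounds of the same reactions, while peroxisomes shorten very long and branched chains, and the acetyl-CoA made in a fasted liver is turned into ketone bodies. PPAR-alpha, bound to DNA together with RXR at a pair of AGGTCA half-sites set a single base apart, is known to switch on much of this pathway in fasting.

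After transfer of the VEGF-A gene, the level of most of these genes was lower than in the controls once the libraries were put on a common scale. Scaled to the median ratio of all genes, 36 of the 39 had a log2 fold change (AdVEGFA minus AdCMV) below 0, against 50.4% of the 13933 genes tested, and the median over the 39 was -0.64, against -0.0044 over all genes. Both values for all genes follow from the scaling, which sets the typical gene near 0 and assumes that most genes do not change. That assumption was not tested. With an adjusted p under 0.05, 23 of the 39 (59.0%) fell and 1, Cd36, rose, where 10.3% of all genes fell and 12.7% rose. Vnn1, which makes pantothenate from pantetheine during the breakdown of coenzyme A, fell the most, and its scaled level fell by 70.4% (log2 fold change -1.76, SE 0.14, 5 mice a group). Hadh, which carries out the third reaction of mitochondrial beta-oxidation, fell by 49.5% and the peroxisomal thiolase Acaa1b fell by 55.0%.

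On the deposited RPKM (reads per kilobase of transcript, relative to the mapped tags of the library), fewer of these genes passed the test. The median log2 fold change over all 13933 genes was 0.38 on that scale, and the median over the 39 genes was -0.24, which is -0.62 relative to the median of all genes. Their log2 fold change was below 0 in 27 of 39, where 18.9% of all genes were below 0. With an adjusted p under 0.05, 3 genes (7.69%) fell, namely Vnn1, Hadh and Acaa1b, and 2 rose, Cd36 and Fgf21, where 2.23% of all genes fell and 21.9% rose. With the additional requirement of a log2 fold change over 1 or under -1, Vnn1 was called lower and Cd36 and Fgf21 higher, beside 1.54% of all genes called lower and 13.0% called higher. After scaling, the same thresholds called Vnn1, Acaa1b and Acot3 lower and Cd36 higher, beside 3.14% and 7.77% of all genes. The values of the 5 AdVEGFA mice all lay under those of the 5 AdCMV mice for 2 genes as deposited and for 21 after scaling, against 1.29% and 7.17% of all genes. For none of the 39 did they all lie above, which was the case for 14.3% of all genes as deposited and 10.6% after scaling.

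**Figure D1:**
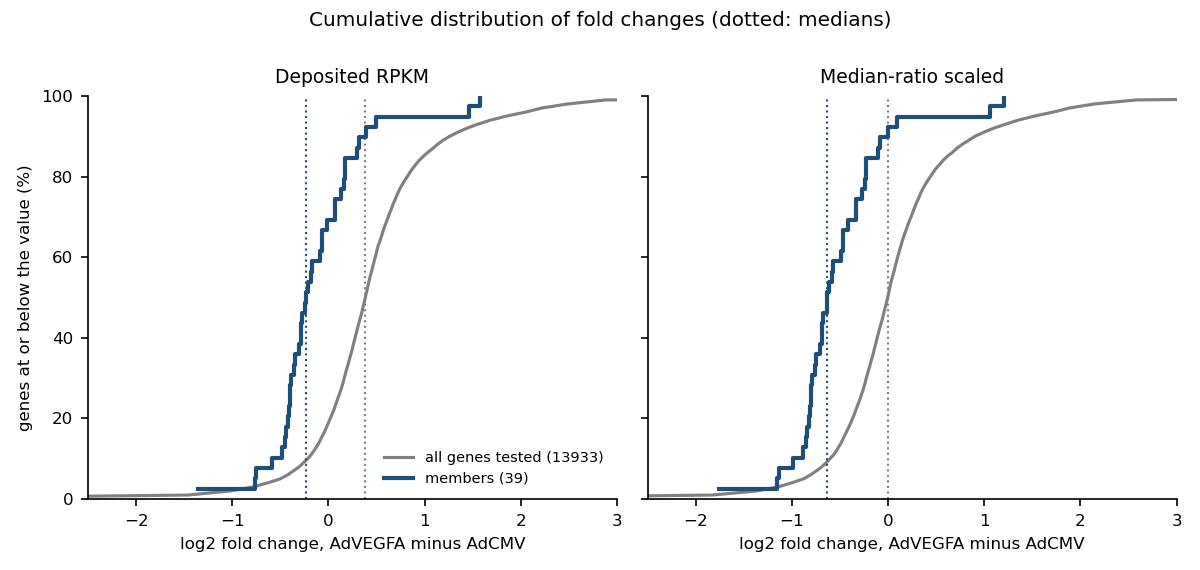
Cumulative share of genes (y axis, percent) at or below each log2 fold change, AdVEGFA minus AdCMV (x axis), on the deposited RPKM (left) and after median-ratio scaling (right), for all 13933 genes tested (grey) and the 39 genes of the pathway (blue), with dotted lines at the medians. The blue curve lies to the left of the grey one in both panels, and scaling moves both medians, from 0.38 to -0.0044 for all genes and from -0.24 to -0.64 for the 39.

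The scale matters since a few liver genes take much of each library. The 21 major urinary protein (Mup) genes held 18.0% to 50.5% of the reads summed over all genes in AdCMV mice and 7.84% to 28.6% in the AdVEGFA mice. An RPKM is a share of its library. Mapped tags ranged from 5596564 to 13494005 per mouse, and 61 or more reads stood behind every value of the 39 genes except those of Fgf21 (5 to 50 reads) and Acot3 (6 to 48). AdCMV replicate 3 stood apart as deposited: its Mup share was the smallest among the controls, and its value was the highest among them in 32 of the 39 genes, and after scaling in 6. Without it, 2 of the 39 genes fell and 3 rose on the deposited RPKM at an adjusted p under 0.05, and 24 fell and 1 rose after scaling. Among markers of other cells, all 12 endothelial markers were called higher on both scales, and their summed RPKM was 41.0 to 82.3 in the controls, against 351 to 426 in the AdVEGFA mice. Of the stellate cell markers 5 of 6 were called higher on both scales, and of the Kupffer cell markers 3 of 9 as deposited and 2 after scaling. The 12 hepatocyte markers had a median log2 fold change of 0.59 as deposited and 0.19 after scaling, with 4 and 1 called higher. Of the pericentral hepatocyte markers, 5 of 8 were called lower as deposited and 6 after scaling, and the 8 periportal ones had a median log2 fold change of 0.55 as deposited and 0.14 after scaling. In whole tissue, fewer cells of a type and less RNA per cell cannot be told apart, and the part of these cell types in the results below was not tested.

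The levels per length of these genes differed widely. Fabp1 reached 7425 RPKM in an AdCMV mouse and 8015 in an AdVEGFA mouse, and Fgf21, Acot3 and Crat were under 10 RPKM in every mouse. The average over the 10 mice exceeded 10 RPKM for 32 genes, and its median over the 39 was 55.6 RPKM. Between mice of a group, the median coefficient of variation over the 39 genes was 22.0% (AdCMV) and 16.6% (AdVEGFA).

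**Figure D2:**
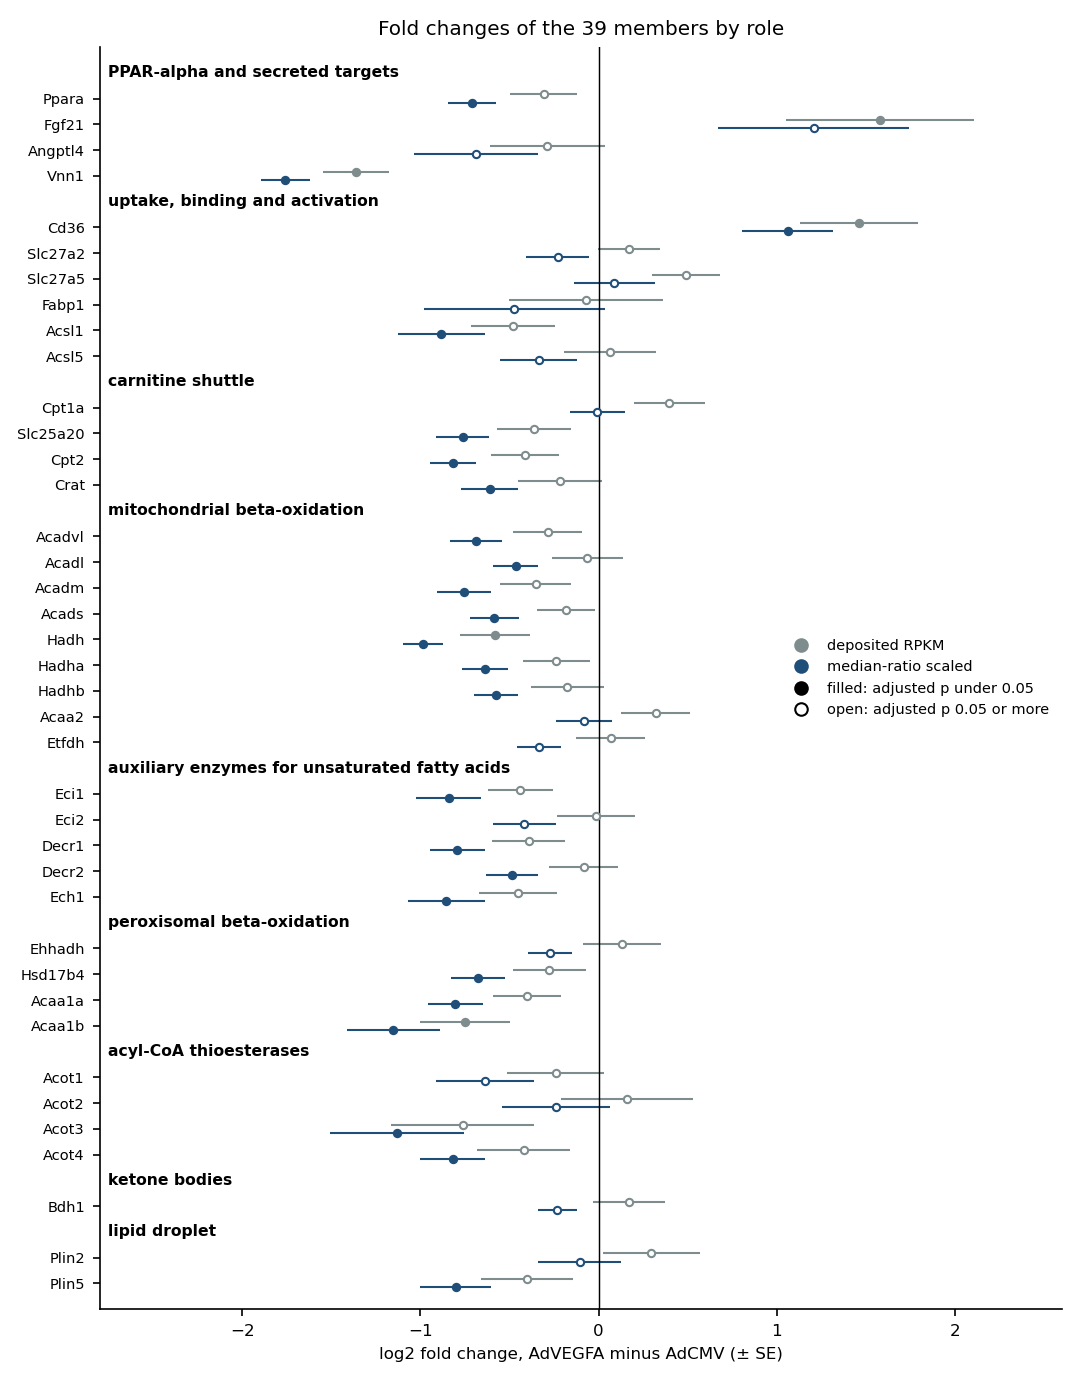
Log2 fold change, AdVEGFA minus AdCMV (x axis, with standard errors), of each of the 39 genes, grouped by role, on the deposited RPKM (grey) and after median-ratio scaling (blue), with filled points at an adjusted p under 0.05. Scaling shifts every gene to the left by about the same amount, so that 36 of 39 blue points lie below 0, and Fgf21 and Cd36 are the genes farthest to the right.

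A PPAR-alpha binding element in its textbook form (DR1) is a direct repeat of AGGTCA with any 1 base between the half-sites. It was sought on both strands of the promoter windows from 250 bases before to 50 bases after the start of each gene (RefSeq, GRCm38.p6), with at most 2 mismatches in the 12 fixed bases. Windows were given for 32 of the 39 genes, all except Crat, Decr1, Vnn1, Angptl4, Slc27a5, Hsd17b4 and Acaa2. A match was found for 5 of the 32 (15.6%), against 1190 of 27025 genes (4.40%) overall. The 5 matches are shown because they are the places in these windows closest to the element, with the match in capitals, 8 bases on each side and the strand that reads as the motif.
Acot4: gcacagacCGGCCAAAGGTCAtgcttcgg
Cd36: atccaagtAAGTCAGAGGCCAgagaacca
Fabp1: tcagatatAGGCCATAGGTCAgtgattgt
Plin2: tctgacttAGGTCAGGGGTCCtgaaagct
Slc25a20: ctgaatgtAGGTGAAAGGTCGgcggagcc
The match of Fabp1 had 1 mismatch and began 67 bases before the start of the gene, within the printed stretch at chr6:71199804-71199832, and 0.554% of all windows held a match of 1 or 0 mismatches. The others had 2 mismatches each. Their printed stretches, flanks included, span chr5:17835939-17835967 for Cd36, chr4:86670264-86670292 for Plin2, chr12:84038358-84038386 for Acot4 and chr9:108662134-108662162 for Slc25a20. The Slc25a20 match lay on the strand of the gene and began 6 bases after its start, and the other 4 were on the opposite strand. The 5 genes did not share a direction: Cd36 rose on both scales, Slc25a20 and Acot4 fell after scaling, and Fabp1 and Plin2 did not pass the test on either scale. A match is a description of letters and not a measured binding site, and elements outside the windows were not sought.

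Ppara itself, at chr15:85566206-85637281 in the mm9 build of the table, encodes the receptor. From replicate 1 to 5, the RPKM of Ppara was 24.3, 21.3, 32.2, 20.5 and 20.5 in the AdCMV mice and 16.7, 17.9, 21.2, 21.7 and 17.4 in the AdVEGFA mice. The groups overlapped as deposited, and after scaling each AdVEGFA mouse was below each AdCMV mouse. The log2 fold change on the scale of log2(RPKM + 0.1) was -0.31 (SE 0.19, adjusted p = 0.236) by limma as deposited and -0.71 (SE 0.14, adjusted p = 0.00227) after scaling. Vnn1, at chr10:23614494-23625149 (mm9), is used as a readout of PPAR-alpha activity in liver. Levels of Vnn1 were 12.9, 12.7, 15.3, 11.4 and 10.9 RPKM in the AdCMV mice, against 4.81, 5.03, 5.42, 5.01 and 4.01 RPKM in the AdVEGFA mice. No AdVEGFA mouse came near the lowest AdCMV mouse on either scale. The difference in Vnn1 was -1.36 (SE 0.18, adjusted p = 3.67e-05) on the log2 scale as deposited and -1.76 (SE 0.14, adjusted p = 2.24e-06) after scaling. It kept an adjusted p under 0.05 in each of the 10 fits that left out 1 mouse, on both scales.

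Fgf21, at chr7:52869260-52870860 (mm9), encodes a hormone that the fasted liver releases and is also known as a target of cellular stress pathways. For Fgf21, the AdCMV mice had 0.733, 1.10, 3.37, 0.901 and 0.922 RPKM and the AdVEGFA mice 7.18, 4.57, 9.48, 0.783 and 2.84 RPKM. AdVEGFA replicates 1, 2 and 3 were above all controls, replicate 5 was below AdCMV replicate 3, and replicate 4 was below all controls but AdCMV replicate 1. For Fgf21, the deposited log2 fold change of 1.58 (SE 0.53, adjusted p = 0.0379) became 1.21 (SE 0.53, adjusted p = 0.126) after scaling. As deposited it passed in 3 of the 10 fits that left out 1 mouse, those without AdCMV replicate 3 (adjusted p = 0.0101), AdVEGFA replicate 4 (adjusted p = 0.00129) or AdVEGFA replicate 5 (adjusted p = 0.044), and missed the threshold without any of the other 7, with an adjusted p of up to 0.109 without AdVEGFA replicate 3. After scaling it passed in 1 of 10, without AdVEGFA replicate 4 (adjusted p = 0.00328). Angptl4, which encodes a secreted inhibitor of lipoprotein lipase, did not pass the test on either scale.

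Cd36, at chr5:17287508-17341714 (mm9), encodes a fatty acid carrier of hepatocytes, macrophages and capillary endothelium. Cd36 was at 26.5, 33.2, 96.5, 18.3 and 25.8 RPKM in the AdCMV mice and at 89.8, 108, 93.2, 102 and 69.4 RPKM in the AdVEGFA mice. AdCMV replicate 3 lay within the AdVEGFA range, and the other 4 control mice lay under it. Cd36 had a log2 fold change of 1.46 (SE 0.33, adjusted p = 0.00409) as deposited and of 1.06 (SE 0.26, adjusted p = 0.01) after scaling. It kept an adjusted p under 0.05 in each of the 10 fits that left out 1 mouse, on both scales. After scaling its log2 fold change was 0.95 (adjusted p = 0.029) without AdCMV replicate 4 and 0.92 (adjusted p = 0.022) without AdCMV replicate 5, under the fold threshold of a call. The 12 endothelial markers given above rose in the same comparison, and their part in this result was not tested. Acsl1, the main long-chain acyl-CoA synthetase of liver, fell after scaling. The RPKM of Acsl1 was 82.8, 75.8, 96.5, 82.2 and 105 in the control mice and 78.4, 76.0, 67.2, 33.3 and 74.4 in the AdVEGFA mice. AdVEGFA replicate 4 was far under the other mice of its group, and after scaling the groups did not overlap. With limma, Acsl1 differed on the log2 scale by -0.48 (SE 0.23, adjusted p = 0.141) as deposited and by -0.88 (SE 0.24, adjusted p = 0.0197) after scaling. The scaled adjusted p was 0.0505 without AdCMV replicate 4 and stayed under 0.05 when any of the other 9 mice was left out. Of the other genes for uptake, binding and activation, Slc27a2, Slc27a5, Fabp1 and Acsl5 did not pass the test on either scale.

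Of the 4 genes of the carnitine shuttle, 3 fell after scaling. CPT1A forms acylcarnitine at the outer mitochondrial membrane and is known as the rate-controlling enzyme of the route. Levels of Cpt1a were 26.2, 24.4, 43.9, 35.2 and 42.0 RPKM in the AdCMV mice, against 44.3, 42.5, 43.6, 46.5 and 42.9 RPKM in the AdVEGFA mice. The 5 AdVEGFA mice lay close together, while the controls spread from 24.4 to 43.9 RPKM and reached into them. The difference in Cpt1a was 0.40 (SE 0.20, adjusted p = 0.152) on the log2 scale as deposited and -0.0062 (SE 0.15, adjusted p = 0.984) after scaling. Its sign thus differed between the scales, and without AdCMV replicate 3 the deposited difference passed (adjusted p = 0.0465).

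CPT2 turns the acylcarnitine back into acyl-CoA inside the mitochondrion. For Cpt2, the AdCMV mice had 34.9, 39.8, 44.8, 26.4 and 33.4 RPKM and the AdVEGFA mice 27.2, 29.5, 26.6, 29.1 and 20.9 RPKM. AdCMV replicate 4 lay within the AdVEGFA range as deposited, and after scaling all 5 AdVEGFA mice were below all controls. For Cpt2, the deposited log2 fold change of -0.41 (SE 0.19, adjusted p = 0.122) became -0.82 (SE 0.13, adjusted p = 0.000568) after scaling. SLC25A20 is the carrier that exchanges carnitine for acylcarnitine across the inner membrane. Slc25a20 was at 27.7, 29.4, 39.9, 27.3 and 31.5 RPKM in the AdCMV mice and at 25.5, 20.4, 25.5, 34.1 and 17.5 RPKM in the AdVEGFA mice. One AdVEGFA mouse, replicate 4, was above 4 of the 5 controls as deposited, and the groups did not overlap after scaling. Slc25a20 had a log2 fold change of -0.36 (SE 0.21, adjusted p = 0.204) as deposited and of -0.76 (SE 0.15, adjusted p = 0.00267) after scaling.

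Carnitine acetyltransferase, encoded by Crat, handles the short chains. The RPKM of Crat was 5.30, 5.20, 9.54, 5.09 and 7.18 in the control mice and 5.29, 3.85, 6.04, 7.56 and 4.82 in the AdVEGFA mice. The groups overlapped as deposited and were apart after scaling. With limma, Crat differed on the log2 scale by -0.22 (SE 0.24, adjusted p = 0.511) as deposited and by -0.61 (SE 0.16, adjusted p = 0.014) after scaling.

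**Figure D3:**
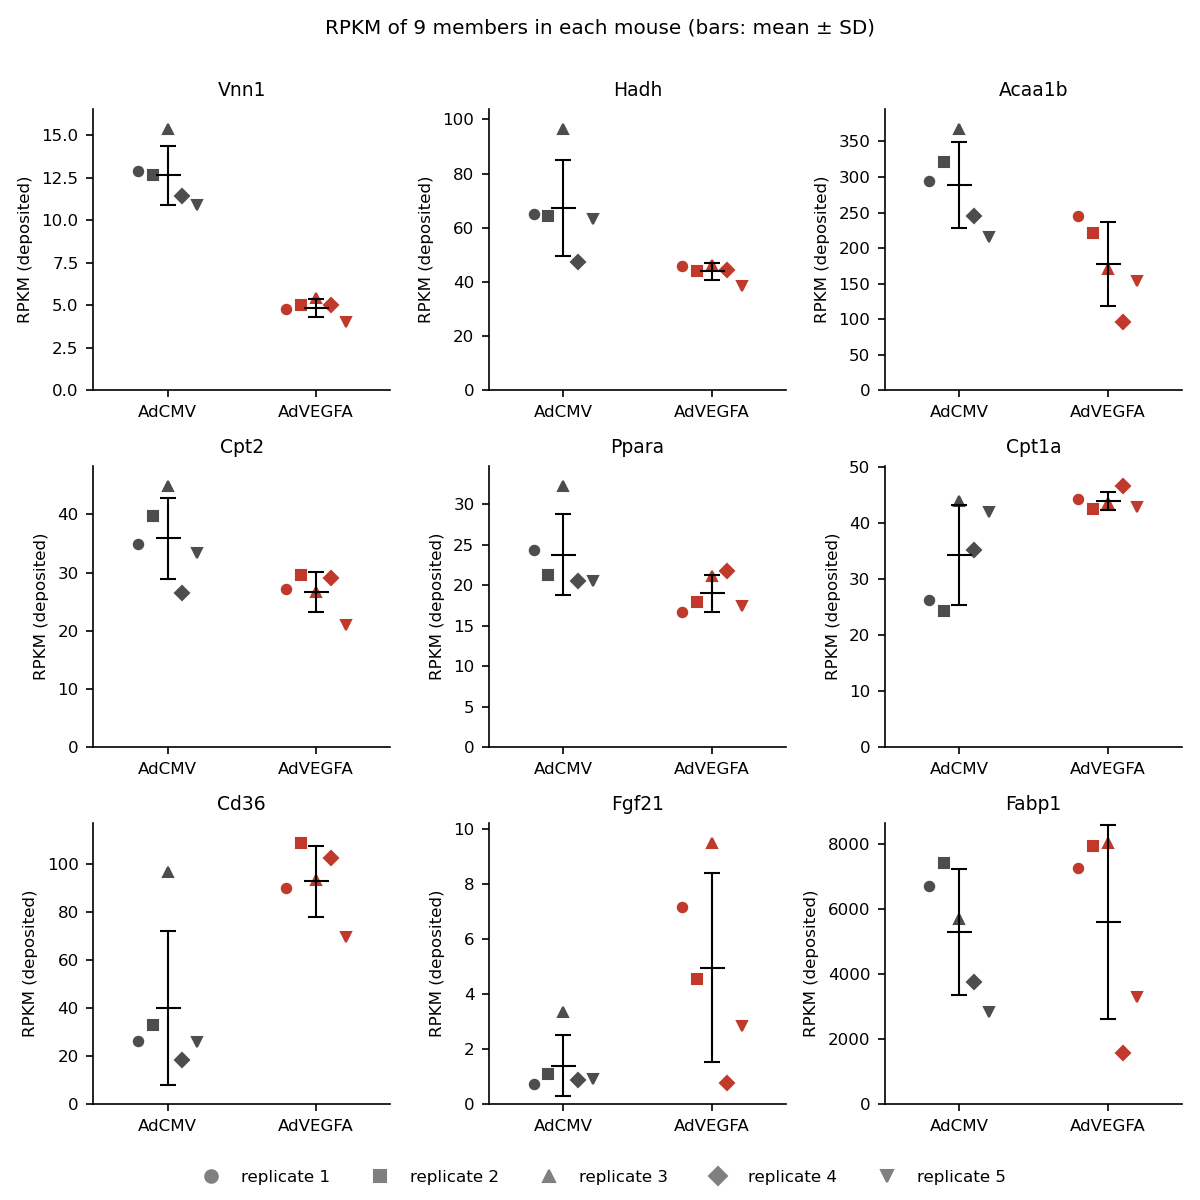
Deposited RPKM (y axis, from 0) of 9 of the genes in each mouse of the AdCMV (grey) and AdVEGFA (red) groups, with the mean and SD as bars and one symbol for each replicate number. Vnn1 and Hadh are the panels without overlap, Cd36 and Fgf21 are the panels with a higher AdVEGFA mean that passed the test, and AdCMV replicate 3 (triangle) is the highest control in 8 of the 9 panels.

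Of the 9 genes of mitochondrial beta-oxidation, 7 fell after scaling and 1 fell as deposited. The acyl-CoA dehydrogenases carry out the first reaction, each on its range of chain lengths. Acadvl acts on very long chains. Levels of Acadvl were 74.7, 81.3, 91.3, 67.9 and 86.3 RPKM in the AdCMV mice, against 70.6, 53.6, 73.0, 84.9 and 51.4 RPKM in the AdVEGFA mice. As deposited AdVEGFA replicate 4 was above 3 of the 5 controls, and after scaling all AdVEGFA mice were below all controls. The difference in Acadvl was -0.29 (SE 0.19, adjusted p = 0.282) on the log2 scale as deposited and -0.69 (SE 0.15, adjusted p = 0.00481) after scaling. Acadl acts on long chains. For Acadl, the AdCMV mice had 35.3, 34.8, 56.3, 37.0 and 40.2 RPKM and the AdVEGFA mice 36.2, 44.6, 41.6, 42.5 and 28.9 RPKM. AdCMV replicate 3 was far above all other mice as deposited. For Acadl, the deposited log2 fold change of -0.06 (SE 0.20, adjusted p = 0.829) became -0.46 (SE 0.12, adjusted p = 0.0175) after scaling. The deposited log2 fold change was 0.060 without that mouse and 0.038 without AdVEGFA replicate 5.

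Acadm, for chains of medium length, is a classic PPAR-alpha target. Acadm was at 70.5, 88.3, 125, 76.2 and 68.7 RPKM in the AdCMV mice and at 63.9, 66.9, 78.2, 60.5 and 59.3 RPKM in the AdVEGFA mice. AdVEGFA replicate 3 lay among the controls as deposited and none did after scaling. Acadm had a log2 fold change of -0.35 (SE 0.20, adjusted p = 0.2) as deposited and of -0.75 (SE 0.15, adjusted p = 0.00296) after scaling. Acads acts on short chains. The RPKM of Acads was 34.1, 35.1, 38.9, 31.9 and 35.1 in the control mice and 32.4, 27.9, 30.6, 32.0 and 31.3 in the AdVEGFA mice. AdVEGFA replicates 1 and 4 passed the lowest control by a small margin, and after scaling no AdVEGFA mouse did. With limma, Acads differed on the log2 scale by -0.18 (SE 0.16, adjusted p = 0.421) as deposited and by -0.58 (SE 0.14, adjusted p = 0.00946) after scaling.

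The trifunctional protein, encoded by the neighbouring genes Hadha and Hadhb (chr5:30444844-30481520 and chr5:30481793-30511133, mm9), carries out the later reactions on long chains. Levels of Hadha were 67.1, 66.0, 98.3, 71.0 and 69.4 RPKM in the AdCMV mice, against 59.6, 65.7, 72.6, 65.3 and 50.7 RPKM in the AdVEGFA mice. For Hadhb, the AdCMV mice had 55.9, 61.8, 95.0, 53.4 and 60.7 RPKM and the AdVEGFA mice 62.0, 58.1, 61.9, 62.5 and 41.5 RPKM. AdCMV replicate 3 was far above the other controls in both genes, and AdVEGFA replicate 5 was the lowest mouse in both. The difference in Hadha was -0.24 (SE 0.19, adjusted p = 0.354) on the log2 scale as deposited and -0.64 (SE 0.13, adjusted p = 0.00338) after scaling. For Hadhb, the deposited log2 fold change of -0.18 (SE 0.21, adjusted p = 0.539) became -0.58 (SE 0.12, adjusted p = 0.00455) after scaling. On either scale the changes of the 2 genes were within 1 standard error of each other.

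Hadh, whose product dehydrogenates hydroxyacyl-CoA of shorter chains, had the lowest log2 fold change of the 9 genes on both scales. It lies at chr3:130936338-130975019 (mm9). Hadh was at 65.2, 64.4, 96.3, 47.5 and 63.4 RPKM in the AdCMV mice and at 45.8, 44.0, 46.4, 44.5 and 38.7 RPKM in the AdVEGFA mice. Every AdVEGFA mouse was below every control on both scales. Hadh had a log2 fold change of -0.58 (SE 0.20, adjusted p = 0.0404) as deposited and of -0.98 (SE 0.11, adjusted p = 3.83e-05) after scaling. As deposited the adjusted p stayed under 0.05 without AdCMV replicate 3 (0.046) or AdCMV replicate 4 (0.0168) and missed it without any of the other 8 mice, with values of up to 0.0848 without AdCMV replicate 1. After scaling it passed in all 10 fits. Acaa2, which encodes the mitochondrial thiolase, and Etfdh, which passes the electrons on to ubiquinone, did not pass the test on either scale.

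Unsaturated fatty acids need helper enzymes that move or remove double bonds. Of the 5 genes of this kind, 4 fell after scaling. Eci1 encodes a mitochondrial enoyl-CoA isomerase. The RPKM of Eci1 was 83.1, 80.8, 84.3, 81.5 and 63.4 in the control mice and 58.9, 64.7, 59.3, 63.5 and 44.5 in the AdVEGFA mice. AdCMV replicate 5 stood well under the other controls, within the AdVEGFA range as deposited but not after scaling. With limma, Eci1 differed on the log2 scale by -0.44 (SE 0.18, adjusted p = 0.0869) as deposited and by -0.84 (SE 0.18, adjusted p = 0.00526) after scaling. Decr1 encodes the mitochondrial dienoyl-CoA reductase. Levels of Decr1 were 36.8, 40.4, 48.3, 29.2 and 28.8 RPKM in the AdCMV mice, against 29.2, 31.1, 30.6, 28.2 and 19.8 RPKM in the AdVEGFA mice. Both groups reached into each other as deposited and not after scaling. The difference in Decr1 was -0.39 (SE 0.20, adjusted p = 0.167) on the log2 scale as deposited and -0.79 (SE 0.16, adjusted p = 0.00276) after scaling.

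Ech1 encodes a dienoyl-CoA isomerase of mitochondria and peroxisomes. For Ech1, the AdCMV mice had 95.9, 112, 111, 123 and 122 RPKM and the AdVEGFA mice 88.1, 61.6, 101, 118 and 56.9 RPKM. AdVEGFA replicates 2 and 5 were far below the other mice, and the groups overlapped on both scales. For Ech1, the deposited log2 fold change of -0.45 (SE 0.22, adjusted p = 0.135) became -0.86 (SE 0.22, adjusted p = 0.0125) after scaling. Decr2 is the peroxisomal counterpart of Decr1. Decr2 was at 68.8, 68.0, 105, 75.0 and 71.6 RPKM in the AdCMV mice and at 71.6, 92.5, 71.0, 69.2 and 60.3 RPKM in the AdVEGFA mice. AdVEGFA replicate 2 was higher than 4 of the 5 controls. Decr2 had a log2 fold change of -0.08 (SE 0.19, adjusted p = 0.763) as deposited and of -0.49 (SE 0.15, adjusted p = 0.0305) after scaling. The scaled adjusted p stayed under 0.05 without AdCMV replicate 2 (0.0484), AdCMV replicate 3 (0.0468), AdCMV replicate 5 (0.0166) or AdVEGFA replicate 2 (0.0193). Decr2 missed 0.05 when any of the other 6 mice was left out, with values of up to 0.081 without AdVEGFA replicate 3. Without AdCMV replicate 3 its deposited log2 fold change was 0.028. Eci2 did not pass the test on either scale.

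In peroxisomal beta-oxidation, 3 of 4 genes fell after scaling and 1 as deposited. Acaa1b and Acaa1a encode the peroxisomal thiolases, both on chromosome 9, with Acaa1b at chr9:119057161-119066211 and Acaa1a at chr9:119250412-119259413 (mm9). The RPKM of Acaa1b was 295, 320.5, 367, 246 and 215 in the control mice and 246, 221, 171, 96.0 and 154 in the AdVEGFA mice. The groups overlapped as deposited, by AdVEGFA replicates 1 and 2, and did not overlap after scaling. With limma, Acaa1b differed on the log2 scale by -0.75 (SE 0.25, adjusted p = 0.0399) as deposited and by -1.15 (SE 0.26, adjusted p = 0.00682) after scaling. As deposited its adjusted p stayed under 0.05 without AdCMV replicate 5 (0.0306), AdVEGFA replicate 1 (0.0262) or AdVEGFA replicate 2 (0.0411) and missed it without any of the other 7 mice, with values of up to 0.0918 without AdVEGFA replicate 4. After scaling it passed in all 10 fits, and its log2 fold change was -0.93 without AdVEGFA replicate 4, short of the fold threshold of a call. Levels of Acaa1a were 73.5, 62.8, 92.0, 68.8 and 81.2 RPKM in the AdCMV mice, against 59.5, 47.0, 52.4, 75.9 and 52.9 RPKM in the AdVEGFA mice. AdVEGFA replicate 4 was high for Acaa1a, where it was the lowest mouse of all for Acaa1b. The difference in Acaa1a was -0.40 (SE 0.19, adjusted p = 0.131) on the log2 scale as deposited and -0.80 (SE 0.15, adjusted p = 0.00234) after scaling. The 2 genes are near-identical copies, and their values may share reads. The study's methods scale libraries to uniquely mapped tags. The reads summed over all rows exceeded the mapped tags by 2.31% to 13.9% per library, so some reads may count in more than 1 row. Whether reads that fit both copies entered the values was not tested.

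Hsd17b4 encodes the bifunctional enzyme that carries out the middle steps for branched and very long chains. For Hsd17b4, the AdCMV mice had 89.2, 94.1, 129, 62.0 and 76.3 RPKM and the AdVEGFA mice 82.1, 78.8, 64.0, 67.6 and 70.5 RPKM. AdCMV replicate 3 was the highest mouse and AdCMV replicate 4 the lowest as deposited, and after scaling every control was above every AdVEGFA mouse. For Hsd17b4, the deposited log2 fold change of -0.28 (SE 0.21, adjusted p = 0.331) became -0.68 (SE 0.15, adjusted p = 0.0066) after scaling. Ehhadh, the bifunctional enzyme of the straight-chain route, is often used as a PPAR-alpha target gene in liver. Ehhadh was at 32.8, 35.0, 56.1, 25.8 and 38.2 RPKM in the AdCMV mice and at 37.6, 46.9, 49.7, 35.2 and 32.2 RPKM in the AdVEGFA mice. Its groups overlapped on both scales. Ehhadh had a log2 fold change of 0.13 (SE 0.22, adjusted p = 0.68) as deposited and of -0.27 (SE 0.12, adjusted p = 0.132) after scaling. Its sign differed between the scales.

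A ratio of summed levels within a library does not depend on the scale between libraries. The summed RPKM of the 4 peroxisomal genes divided by that of the 9 mitochondrial genes was 0.721, 0.711, 0.688, 0.643 and 0.600 in the AdCMV mice and 0.570, 0.547, 0.431, 0.367 and 0.551 in the AdVEGFA mice. All 5 AdVEGFA mice were thus below all controls, with means of 0.673 ± 0.0503 (SD, n = 5) and 0.493 ± 0.0894 (SD, n = 5). The difference was -0.180 and stayed between -0.199 and -0.148 when 1 mouse was left out. Acaa1b was the most abundant of the 4 peroxisomal genes in every mouse and so weighed most in their sum. Its log2 fold change after scaling was -1.15, against -0.80 for Acaa1a, -0.68 for Hsd17b4 and -0.27 for Ehhadh. Acaa2 was likewise the most abundant of the 9 mitochondrial genes in every mouse. Its log2 fold change after scaling was -0.081, while 7 of the 9 fell. Ratios without Acaa1b or Acaa2 were not formed. The difference therefore cannot be read as one between all 4 peroxisomal and all 9 mitochondrial genes. The ratio was given no test.

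Further ratios within a library were formed after the values had been seen, and serve as description only. Vnn1 over Ppara was 0.477 to 0.596 in the controls, against 0.230 to 0.288 in the AdVEGFA mice. Cpt1a over Cpt2 was 0.612 to 1.33 in the controls and 1.44 to 2.05 in the AdVEGFA mice. Acaa2 over Hadh was 3.07 to 4.59 in the controls and 5.98 to 7.55 in the AdVEGFA mice. In each of these 3 ratios the groups did not overlap, and since the pairs were picked with the values in view, nothing is read from that. Acaa1b over Acaa1a was 2.65 to 5.10 in the controls and 1.26 to 4.70 in the AdVEGFA mice, and these ranges overlapped.

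**Figure D4:**
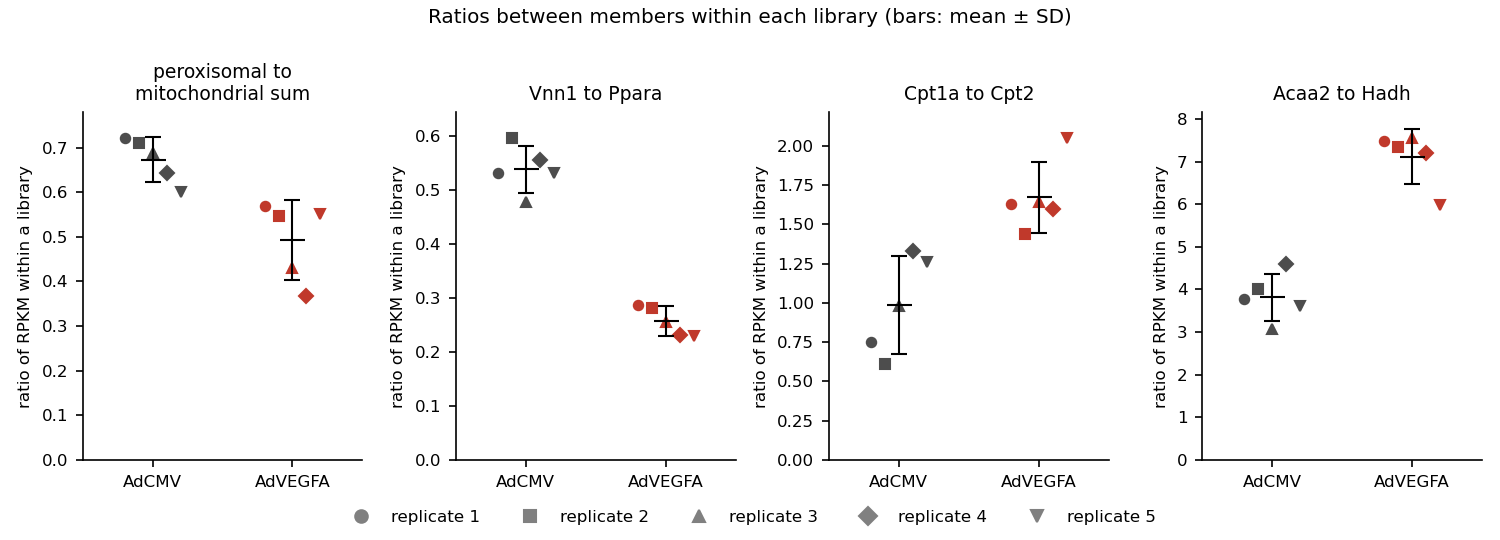
Ratios of RPKM within each library (y axes, from 0) for the AdCMV (grey) and AdVEGFA (red) mice, with the mean and SD as bars and one symbol for each replicate number. The peroxisomal to mitochondrial sum and Vnn1 to Ppara are lower in all 5 AdVEGFA mice, and Cpt1a to Cpt2 and Acaa2 to Hadh are higher in all 5; the last 3 ratios were chosen after the values had been seen.

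Acyl-CoA thioesterases release free fatty acids from coenzyme A, and Acot1 to Acot4 lie side by side as similar copies on chromosome 12, between 85328811 and 85400514 (mm9), so their values may share reads. Of the 4, 2 fell after scaling. The RPKM of Acot4 was 6.91, 10.3, 15.5, 8.04 and 11.2 in the control mice and 5.60, 7.31, 11.6, 8.96 and 5.32 in the AdVEGFA mice. The groups overlapped on both scales. With limma, Acot4 differed on the log2 scale by -0.42 (SE 0.26, adjusted p = 0.237) as deposited and by -0.82 (SE 0.18, adjusted p = 0.00593) after scaling. Levels of Acot3 were 0.854, 1.38, 1.32, 1.31 and 3.22 RPKM in the AdCMV mice, against 0.413, 0.677, 1.80, 1.33 and 0.517 RPKM in the AdVEGFA mice. The level was near the limit of detection, with 48 reads at most, and AdCMV replicate 5 stood above all other mice. The difference in Acot3 was -0.76 (SE 0.40, adjusted p = 0.168) on the log2 scale as deposited and -1.13 (SE 0.38, adjusted p = 0.0473) after scaling. The scaled call was kept without AdCMV replicate 1 (adjusted p = 0.0441), AdCMV replicate 3 (0.0391), AdVEGFA replicate 3 (0.0231) or AdVEGFA replicate 4 (0.0361) and lost without any of the other 6 mice, with values of up to 0.102 without AdVEGFA replicate 1. For Acot1, the AdCMV mice had 9.78, 8.78, 8.25, 8.67 and 12.5 RPKM and the AdVEGFA mice 10.5, 6.67, 15.6, 5.15 and 5.84 RPKM. Its highest value and its lowest were both in AdVEGFA mice. For Acot1, the deposited log2 fold change of -0.24 (SE 0.27, adjusted p = 0.528) became -0.64 (SE 0.27, adjusted p = 0.115) after scaling. It passed after scaling without AdCMV replicate 3 (adjusted p = 0.0472) or AdVEGFA replicate 3 (adjusted p = 0.0306). Acot2 did not pass the test on either scale.

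Of the lipid droplet genes, Plin5 fell after scaling. PLIN5 coats lipid droplets in oxidative tissues and ties them to mitochondria. Plin5 was at 8.43, 11.7, 15.6, 10.2 and 11.7 RPKM in the AdCMV mice and at 9.70, 8.08, 13.3, 9.37 and 4.57 RPKM in the AdVEGFA mice. AdVEGFA replicate 5 was far below all other mice. Plin5 had a log2 fold change of -0.40 (SE 0.26, adjusted p = 0.253) as deposited and of -0.80 (SE 0.20, adjusted p = 0.0111) after scaling. Plin2, the general droplet coat of hepatocytes, and Bdh1, which interconverts the ketone bodies acetoacetate and hydroxybutyrate, did not pass the test on either scale.

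Altogether 25 of the 39 genes had an adjusted p under 0.05 on at least 1 scale. Cpt1a, Ehhadh and Acot1 did not, and are given by mouse above. The other 11 did not either and are not given by mouse. They are Angptl4, Slc27a2, Slc27a5, Fabp1, Acsl5, Acaa2, Etfdh, Eci2, Acot2, Bdh1 and Plin2. Their log2 fold changes ran from -0.29 to 0.49 as deposited and from -0.69 to 0.09 after scaling, and 7 of the 11 were above 0 on the first scale and below 0 on the second. The smallest adjusted p among them was 0.0696 as deposited and 0.0701 after scaling.

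A further 83 genes of the same and neighbouring pathways were listed by function, and 80 of them could be tested. As deposited 4 were called higher and 4 lower, with a median log2 fold change of -0.02, where 13.0% and 1.54% of all genes were called higher and lower. After scaling 3 were called higher and 11 lower, with a median of -0.41, where 7.77% and 3.14% of all genes were called. At an adjusted p under 0.05 with no fold threshold, 5 rose and 9 fell as deposited and 4 rose and 28 fell after scaling, where 21.9% and 2.23% of all genes rose and fell as deposited and 12.7% and 10.3% after scaling. Of the 18 related mitochondrial and ketone body genes 8 fell and 1 rose after scaling, and of the 18 related peroxisomal genes 9 fell. Of the 31 related PPAR-alpha targets that could be tested, 10 fell and 3 rose after scaling. Their median log2 fold change was 0.08 as deposited and -0.32 after scaling. Among the 13 partners of PPAR-alpha, such as coactivators and RXR, 1 fell after scaling, a share near that of all genes (10.3%). All 13 had a log2 fold change below 0 after scaling, against 50.4% of all genes, with a median of -0.36. In 4 of the 13 every AdVEGFA mouse lay under every control after scaling, against 7.17% of all genes. As deposited 5 of the 13 were below 0, with a median of 0.04.

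Pdk4, which blocks the use of pyruvate in fasting, was low in both groups. The RPKM of Pdk4 was 5.42, 7.09, 9.22, 5.15 and 7.82 in the control mice and 10.3, 9.04, 7.89, 4.68 and 7.21 in the AdVEGFA mice. With limma, Pdk4 differed on the log2 scale by 0.16 (SE 0.24, adjusted p = 0.641) as deposited and by -0.24 (SE 0.19, adjusted p = 0.403) after scaling. The coactivator gene Ppargc1a was at or under 1.66 RPKM in every mouse. The difference in Ppargc1a was -0.05 (SE 0.30, adjusted p = 0.918) on the log2 scale as deposited and -0.41 (SE 0.19, adjusted p = 0.139) after scaling.

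The Cyp4a genes encode hydroxylases that start the omega-oxidation of fatty acids. Levels of Cyp4a10 were 19.3, 14.1, 16.4, 34.0 and 42.7 RPKM in the AdCMV mice, against 7.56, 11.4, 19.9, 14.4 and 6.10 RPKM in the AdVEGFA mice. AdVEGFA replicates 3 and 4 lay within the control range. For Cyp4a10, the deposited log2 fold change of -1.08 (SE 0.34, adjusted p = 0.0292) became -1.48 (SE 0.37, adjusted p = 0.0127) after scaling. For Cyp4a14, the AdCMV mice had 13.2, 19.4, 52.1, 29.2 and 62.4 RPKM and the AdVEGFA mice 12.1, 14.2, 54.1, 30.7 and 8.98 RPKM. Both groups held high and low mice, and their ranges were nearly the same. Cyp4a14 had a log2 fold change of -0.65 (SE 0.46, adjusted p = 0.309) as deposited and of -1.05 (SE 0.45, adjusted p = 0.115) after scaling. Cyp4a12a and Cyp4a12b, which liver of males expresses at a high level, fell far more. Cyp4a12a was at 59.1, 48.6, 68.9, 41.8 and 57.0 RPKM in the AdCMV mice and at 22.1, 10.7, 1.85, 2.09 and 20.1 RPKM in the AdVEGFA mice. AdVEGFA replicates 3 and 4 were the lowest, and no AdVEGFA mouse reached the controls. With limma, Cyp4a12a differed on the log2 scale by -2.90 (SE 0.56, adjusted p = 0.00107) as deposited and by -3.29 (SE 0.65, adjusted p = 0.00284) after scaling. The difference in Cyp4a12b was -2.48 (SE 0.51, adjusted p = 0.00191) on the log2 scale as deposited and -2.87 (SE 0.59, adjusted p = 0.0036) after scaling. The Cyp4a genes include near-identical copies, and Cyp4a12a and Cyp4a12b followed each other across the mice.

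Fabp4 and Fabp5, fatty acid binding proteins of adipocytes, macrophages and capillary endothelium, rose. The RPKM of Fabp4 was 9.13, 21.0, 27.2, 4.34 and 7.11 in the control mice and 139, 159, 228, 367 and 143 in the AdVEGFA mice. Every AdVEGFA mouse was far above every control. For Fabp4, the deposited log2 fold change of 4.11 (SE 0.41, adjusted p = 1.77e-06) became 3.71 (SE 0.39, adjusted p = 2.15e-05) after scaling. Levels of Fabp5 were 32.1, 48.6, 32.6, 21.7 and 47.3 RPKM in the AdCMV mice, against 232, 129, 249, 144 and 73.7 RPKM in the AdVEGFA mice. These groups did not overlap either. Fabp5 had a log2 fold change of 2.11 (SE 0.31, adjusted p = 8.30e-05) as deposited and of 1.71 (SE 0.29, adjusted p = 0.00105) after scaling. The 7 adipocyte markers summed to 4.65 to 16.2 RPKM in the controls and 4.09 to 8.94 RPKM in the AdVEGFA mice. Of them, Adipoq, Retn and Plin1 were at 0 in every mouse, 3 were tested and 1 of the 3, Cfd, was called lower on both scales. The 12 endothelial markers rose in the same comparison, and the part of the endothelial markers in these rises was not tested.

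Further related genes called on at least 1 scale included Hilpda, an inhibitor of lipolysis on lipid droplets. For Hilpda, the AdCMV mice had 1.69, 3.17, 3.36, 1.19 and 2.12 RPKM and the AdVEGFA mice 4.36, 9.61, 7.29, 7.02 and 5.45 RPKM. With limma, Hilpda differed on the log2 scale by 1.55 (SE 0.29, adjusted p = 0.000857) as deposited and by 1.16 (SE 0.23, adjusted p = 0.00295) after scaling. G0s2, another inhibitor of lipolysis, went the other way. G0s2 ranged from 29.6 to 185 RPKM in the AdCMV mice and from 20.7 to 52.0 RPKM in the AdVEGFA mice. The difference in G0s2 was -1.08 (SE 0.37, adjusted p = 0.0445) on the log2 scale as deposited and -1.48 (SE 0.39, adjusted p = 0.0157) after scaling. Aldh3a2, which oxidizes fatty aldehydes, passed the fold threshold after scaling. Aldh3a2 was at 39.3, 38.9, 78.6, 21.6 and 37.0 RPKM in the AdCMV mice and at 25.2, 26.5, 27.3, 12.7 and 14.4 RPKM in the AdVEGFA mice. For Aldh3a2, the deposited log2 fold change of -0.97 (SE 0.30, adjusted p = 0.0294) became -1.37 (SE 0.24, adjusted p = 0.0012) after scaling. Oxct1 encodes the enzyme with which tissues other than hepatocytes use ketone bodies. The RPKM of Oxct1 was 3.03, 3.90, 5.97, 2.21 and 4.31 in the control mice and 9.56, 11.6, 13.0, 6.71 and 7.89 in the AdVEGFA mice. All AdVEGFA mice were above all controls. Oxct1 had a log2 fold change of 1.34 (SE 0.26, adjusted p = 0.00135) as deposited and of 0.95 (SE 0.18, adjusted p = 0.00193) after scaling.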

How the data were processed

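Liver RNA-Seq of 10 mice (5 AdCMV, 5 AdVEGFA, labelled biological replicates 1 to 5) was analysed. Per the labels, the reads were mapped to mm9 with TopHat and summarised with HOMER, whose versions are not used here, and the authors deposited RPKM values for 24016 transcripts per mouse, scaled to the library total only. Their own log fold change and FDR columns were not used, and no column of another sample was present.

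The 5 rows without a symbol were left out. The 39 genes, the related and marker lists and the rule for genes given by mouse were chosen with earlier results of these data known. That rule takes genes with an adjusted p under 0.05 on either scale, and Ppara, Cpt1a, Acadm, Hadha, Ehhadh, Cd36, Fgf21 and Acot1 in any case. It also takes 6 related genes, of which 2 are not reported here, and the 8 others called with the largest fold change. All 39 passed the filter on low values.

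limma 3.58.1 in R 4.3.3 (lmFit, eBayes with a trend) was run on log2(RPKM + 0.1), for the 13933 genes whose mean exceeded 0.5 RPKM in either group, and p-values were adjusted over all of them (Benjamini-Hochberg). A call needed an adjusted p under 0.05 together with a log2 change beyond 1 or -1. The same test was run after dividing each library by its median ratio to the geometric mean over genes. On simulated data with 200 changed genes, the fit was tested for recovering them. Alternatives were upper quartile scaling, totals without the Mup genes, other pseudocounts and filters, 1 row per symbol, voom on recovered reads, a replicate block, and leaving out each mouse.

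RPKM values fell on steps of whole reads (within 0.1 of a read) for at least 99.983% of values per library, which gave the reads behind each value. A transcript of 1 kb with 3 reads corresponds to 0.222 to 0.536 RPKM, for counting error only. Promoter windows came from RefSeq on GRCm38.p6, and no coordinates were converted between the builds. Python 3.11.15 with numpy 2.4.6, pandas 2.3.3 and matplotlib 3.10.9 was used.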

Additional observations from a re-analysis of the deposited data

Results flagged for a closer look

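For each of the 39 genes and both groups, the highest and the lowest mouse were compared with the rest of the group by Dixon's test on the deposited RPKM. Of 78 groups, 14 had a mouse apart from the others, where chance gives about 5%, and 7 of the 14 were AdCMV replicate 3 at the high end.

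That mouse had 3.37 RPKM of Fgf21, 96.5 of Cd36, 56.3 of Acadl, 98.3 of Hadha, 95.0 of Hadhb, 104.6 of Decr2 and 22.1 of Acot2. It also had the lowest Mup share among the controls (18.0%), and after median-ratio scaling it was the highest control in 6 of the 39 genes in place of 32. The part of the Mup share in these 7 values was not tested. AdVEGFA replicate 5 was apart at the low end with 41.5 RPKM of Hadhb, 231.6 of Acaa2, 44.5 of Eci1 and 19.8 of Decr1, and it was the lowest mouse of its group in 21 of the 39 genes as deposited.

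Acsl1 was at 33.3 RPKM in AdVEGFA replicate 4, where the next mouse of the group had 67.2. Eci1 was at 63.4 RPKM in AdCMV replicate 5, where the next control had 80.8. Acot3 was at 3.22 RPKM in AdCMV replicate 5, where the next control had 1.38.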

How the results depend on the processing

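The main dependence was on the scale between libraries. All genes called higher numbered 1082 after median-ratio scaling, 1125 after upper quartile scaling, 1144 with totals without the Mup genes, 1135 with voom and median-ratio scaling and 954 with a pseudocount of 1, against 1808 as deposited. Those called lower numbered 438, 393, 384 and 477 on the first 4 of these, against 214. Of the 39 genes, 3, 2, 2 and 3 were called lower on those 4 scales, 23, 22, 22 and 23 had an adjusted p under 0.05 and fell, and 1 was called higher and 1 rose by either rule. Their median log2 fold change was -0.64, -0.59, -0.58 and -0.64, and 11 related genes were called lower on each. Relative to all genes, the median of the 39 was -0.50 with a pseudocount of 1.

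The count of the 39 genes that were called higher, or rose, was 1 with no filter and with voom on the reads, in place of 2, since Fgf21 lost its call (adjusted p = 0.0793 and 0.0514). With no filter Acaa1b no longer had an adjusted p under 0.05 (0.058), and 2 related genes were called lower in place of 4. Cpt1a changed sign, to -0.0062 (log2) after median-ratio scaling and to -0.015 with voom and that scaling. Ehhadh changed sign too, with -0.27 after median-ratio scaling, -0.23 after upper quartile scaling, -0.21 without the Mup genes and -0.27 with voom and scaling. Median-ratio scaling moved the median over all genes from 0.38 to -0.0044, and Cpt1a and Ehhadh moved down by a similar amount. Why Fgf21, Acaa1b and the related genes no longer passed was not tested.

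Between mice of the same replicate number, the correlation of deviations was 0.0076 to 0.291 as deposited and above 0.1 for 2 of 5 numbers. For AdCMV replicates 1, 4 and 5 the AdVEGFA mouse with the highest correlation had the same number. Whether the numbers pair the mice cannot be told from so few values. With the replicate block, 1933 genes were called higher and 256 lower, and the block changed no call of the 39 genes as deposited. With the block and median-ratio scaling, 1081 genes were called higher and 475 lower, 1 of the 39 was called higher and 3 lower, 1 rose and 24 fell at an adjusted p under 0.05, the median was -0.64, 12 related genes were called lower, and Cpt1a and Ehhadh had -0.0062 and -0.27.

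When 1 mouse was left out, as deposited or after median-ratio scaling, 1012 to 2357 genes were called higher and 178 to 456 lower. Of the 39, 0 to 2 were called higher by limma, 1 to 3 rose at an adjusted p under 0.05, 1 to 3 were called lower and 1 to 24 fell (1 to 2 as deposited, 20 to 24 after scaling). Their median was -0.71 to -0.13, and 2 to 12 related genes were called lower. Log2 fold changes were -0.091 to 0.49 for Cpt1a, -0.32 to 0.28 for Ehhadh, -0.51 to 0.060 for Acadl and -0.57 to 0.028 for Decr2. The limits of these data are 5 mice a group, the 5 to 50 reads of Fgf21 and 6 to 48 of Acot3, reads shared by near-identical copies, and a single time point on day 6.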

Other observations

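Genes of fatty acid synthesis in the fed liver were listed by function as well. Of 11 such genes, Me1, which supplies NADPH, and Thrsp, a lipogenic regulator, were called lower on both scales. Among all genes, 1.54% were called lower as deposited and 3.14% after scaling. At an adjusted p under 0.05 after scaling, 4 of the 11 fell, where 10.3% of all genes fell. The median log2 fold change of the 11 after scaling was -0.61, beside -0.0044 over all genes. The RPKM of Me1 was 75.1, 97.0, 136, 36.6 and 53.5 in the AdCMV mice and 52.3, 28.5, 34.6, 13.8 and 20.5 in the AdVEGFA mice. Its log2 fold change was -1.41 (SE 0.36, adjusted p = 0.00873) as deposited and -1.81 (SE 0.34, adjusted p = 0.00196) after scaling. Thrsp had 132, 90.7, 131, 48.6 and 78.6 RPKM in the AdCMV mice and 96.8, 20.4, 36.8, 16.1 and 20.7 RPKM in the AdVEGFA mice, with a log2 fold change of -1.59 (SE 0.40, adjusted p = 0.00884) as deposited and -1.99 (SE 0.42, adjusted p = 0.00407) after scaling. AdVEGFA replicate 1 lay within the control range for both as deposited. These 2 genes were singled out after their values had been seen.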
